A study of Mus musculus with 2 samples.

Results

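The genes described here are the collagen chains, the ADAMTS proteases and the ADAMTS-like proteins in neuronal nuclei of the mouse hypothalamus. They were taken by symbol, as every gene row whose name has the form of a collagen alpha chain or of an ADAMTS or ADAMTS-like gene and that had counts of captured RNA molecules, read as unique molecular identifiers (UMIs), in at least 20 barcodes. Of 68 rows with such a name among 32285 genes, 67 met the rule, comprising 43 collagen chains, 19 ADAMTS proteases and 5 ADAMTS-like genes. Adamts13, with UMIs in 21 barcodes, lay just inside the limit, and Col1a1, with UMIs in 7, was the row left out. The nuclei came from wild type male C57BL/6J mice aged 10 to 12 weeks, given as arcuate nucleus (ARC) tissue, and were sorted for high staining of NeuN, a protein of neuronal nuclei. All of them were sequenced together as a single gene expression library, with a second library for the hashtags, and 11409 barcodes were called as nuclei. A hashtag is an antibody to the nuclear pore that carries a DNA barcode and marks the nuclei of a preparation before pooling. The matrix held 2 hashtags, named ARC and PVH, and the labels describe no PVH tissue, so the groups are called here by their hashtag.

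After the filters, 3767 nuclei carried the ARC hashtag alone and 3074 the PVH hashtag alone, with medians of 4827 and 5039 UMIs per nucleus. Sim1, a transcription factor of the paraventricular nucleus, was at 10.6 counts per 1000000 UMIs (CPM) with the ARC hashtag and 109 CPM with the PVH hashtag. Pomc, the precursor of a satiety peptide of the ARC, was at 164 and 90.3 CPM. Nuclei of all mice were pooled and the hashtags do not assign nuclei to mice, so there are no replicates, no test was made, and every interval below covers counting error only, at the 95% level. Free RNA was present. Agrp, a peptide gene of AGRP neurons, had a UMI in 49.8% of ARC nuclei outside the AGRP-like cluster and in 72.9% inside it. The medians were 4793 and 5006 UMIs. Oxt, Avp and Trh, given below as markers of PVH clusters, were not confined to that hashtag. They were at 565, 310 and 26.1 CPM with ARC and at 616, 324 and 34.4 CPM with PVH. A marker of a cluster needed only 1.5-fold of the other neurons, and the part of free RNA was not tested.

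Collagens are secreted or membrane-bound proteins whose chains wind into triple helices. They form fibrils, basement membranes and pericellular networks, and several transmembrane and fibril-associated types are known from neurons and synapses. ADAMTS proteases are secreted zinc metalloproteinases that process procollagens or cut proteoglycans such as aggrecan, versican and brevican, the main components of the matrix around neurons, and the ADAMTS-like proteins share their ancillary domains but lack the catalytic one.

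Together the 67 genes made up 1011 CPM with the ARC hashtag (997 to 1026) and 943 CPM with the PVH hashtag (928 to 958), and a nucleus had UMIs of 3 of them in the median on both sides. The counts were uneven. Col25a1, a transmembrane collagen first described in amyloid plaques, held 19.8% of these UMIs, and with Adamts17, Col4a2, Adamts6 and Col11a1 the share came to 47.1%. The number of UMIs per gene in nuclei with a single hashtag ran from 13 for Col10a1 to 7034 for Col25a1, with a median of 150, and 41 genes had at least 100.

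By family, the largest sums were those of the ADAMTS proteases without a shared substrate class, at 263 CPM with the ARC hashtag and 179 CPM with the PVH hashtag, and of the transmembrane collagens, at 227 and 244 CPM, the former being the larger with ARC and the latter with PVH. The basement membrane chains of collagen IV summed to 144 and 112 CPM, the fibril-associated collagens to 97.9 and 105 CPM, and the fibrillar collagens to 79.3 and 92.6 CPM. Lower sums were found for the ADAMTS-like genes (49.0 and 71.6 CPM), the procollagen N-proteinases (46.2 and 43.6 CPM) and the proteases that cleave proteoglycans (37.6 and 28.5 CPM). The short chain and anchoring collagens gave 33.3 and 23.2 CPM, collagen VI and its relative Col28a1 gave 18.2 and 21.9 CPM, and the multiplexins gave 15.7 and 22.1 CPM. A single gene supplied most of the UMIs in several families, with Col18a1 at 89.4% of the multiplexins, Col25a1 at 82.6% of the transmembrane collagens, Col8a1 at 81.8% of the short chain and anchoring collagens and Col11a1 at 63.3% of the fibrillar collagens.

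Levels were also divided by the length of the gene, which raises short genes over long ones, so this order depends on the divisor. Per kilobase of gene, the level in singly tagged nuclei was 1.58 CPM for Col9a2, a chain of the fibril-associated collagen IX, 0.981 CPM for Adamts10, a protease that binds fibrillin, and 0.888 CPM for Adamtsl4, a fibrillin-binding ADAMTS-like protein. Col25a1 came to 0.415 CPM per kilobase, below Col4a2 (0.515), Col9a3 (0.508) and Col6a1 (0.426). Across the 67 genes the level had a Spearman correlation of 0.44 with gene length and 0.18 with exonic length, given as a description over genes that share their libraries. The sources used here do not say whether intronic reads were counted or strand was used, and 38 of the 67 genes have another annotated gene within their body, 18 of them on the same strand.

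Between the hashtags, Col15a1, Col27a1, Adamtsl1 and Adamts12 were among the genes that were higher with PVH, and Col24a1, Col4a3, Adamts1, Adamts9, Adamts6 and Adamts17 among those that were higher with ARC. Of the 67 genes, 63 had at least 20 UMIs over both groups and were compared, and Col3a1, Col10a1, Adamts13 and Adamtsl5 did not. At least 2-fold higher with PVH were 9 of the 63 (14.3%), beside 3.36% of all 18112 genes compared in the same way. At least 2-fold higher with ARC were 8 of the 63 (12.7%), beside 2.68% of all genes. The other 46 lay within 2-fold, and the median PVH over ARC ratio was 1.05 for these genes and 0.971 for all genes.

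**Figure D1:**
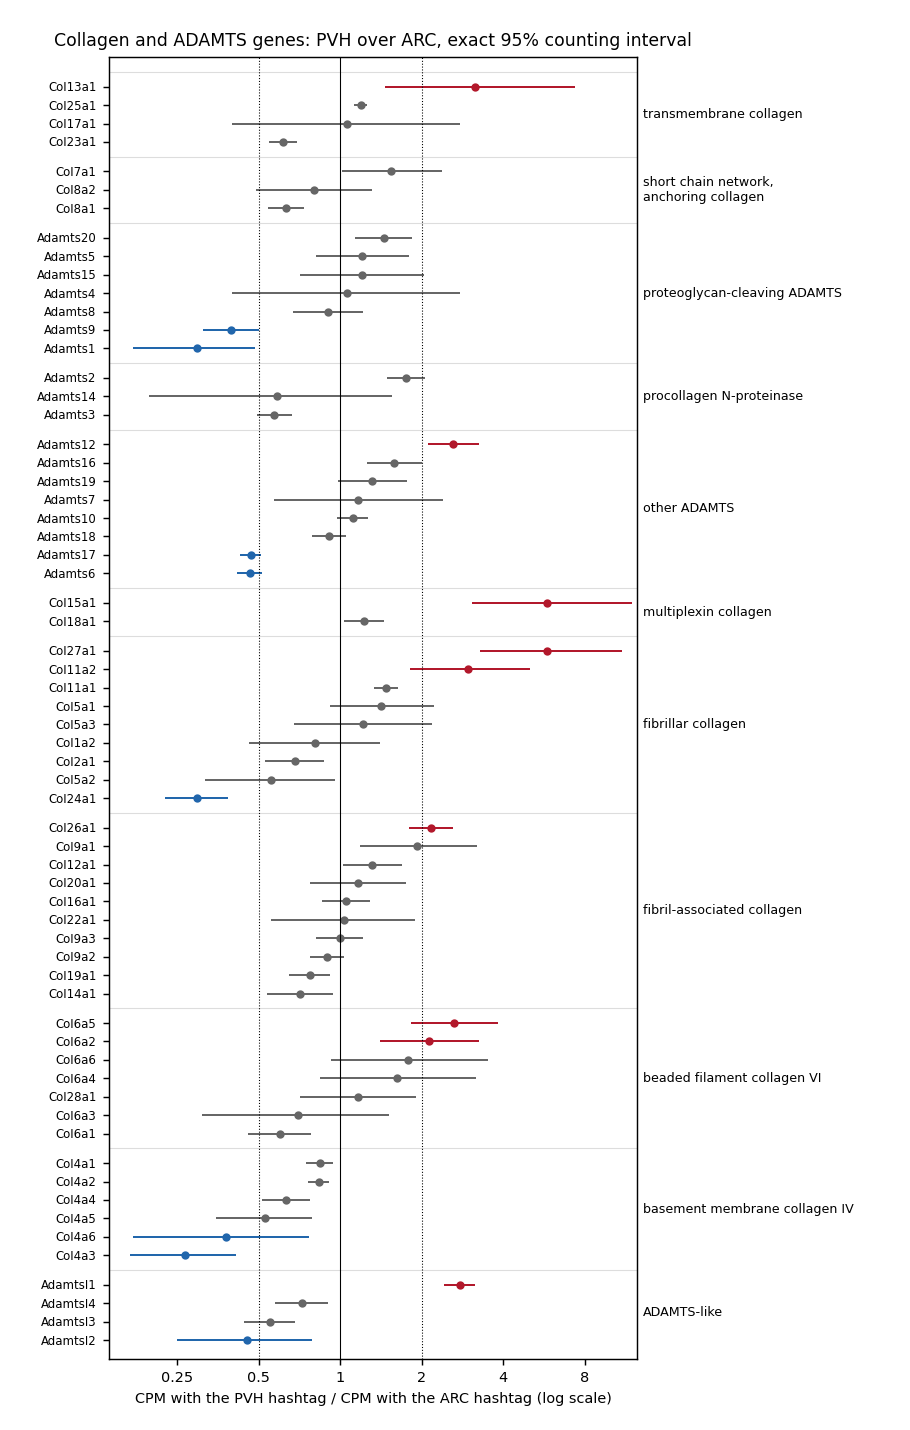
Ratio of the CPM with the PVH hashtag to the CPM with the ARC hashtag (log axis) for the 63 genes with at least 20 UMIs, grouped by family, with exact intervals that cover counting error. The 9 genes past 2-fold toward PVH run up to 5.82 for Col15a1 and Col27a1, and the 8 past 2-fold toward ARC run down to 0.267 for Col4a3.

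Among the fibril-forming collagens, Col27a1, a fibrillar chain of cartilage, was at 0.770 CPM with ARC and 4.48 CPM with PVH, a ratio of 5.82 (3.32 to 10.9). Col11a2, a chain of the minor cartilage collagen XI, was at 1.23 and 3.65 CPM, a ratio of 2.96 (1.82 to 4.97). The direction was opposite for Col24a1, a fibrillar collagen, at 15.4 CPM with ARC and 4.54 CPM with PVH, 3.39-fold higher with ARC (2.63 to 4.42). The most abundant chain of the group, Col11a1, stayed within 2-fold at 44.3 and 65.4 CPM (1.48, 1.35 to 1.62), and Col2a1, the main collagen of cartilage, was at 9.59 and 6.51 CPM (0.679, 0.531 to 0.864).

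In the basement membrane family, 2 of 6 chains passed 2-fold, both toward ARC. Col4a3, a chain of the kidney filter and inner ear, was at 6.05 CPM with ARC and 1.61 CPM with PVH, 3.75-fold higher with ARC (2.45 to 5.93). Col4a6, found in the basement membranes of skin and smooth muscle, was at 1.74 and 0.657 CPM on 34 and 11 UMIs, 2.65-fold higher with ARC (1.31 to 5.81). The ubiquitous pair Col4a1 and Col4a2 differed less, with PVH over ARC ratios of 0.839 (40.5 and 33.9 CPM) and 0.833 (76.2 and 63.5 CPM). Col4a4 was at 15.4 and 9.74 CPM (0.631) and Col4a5 at 4.31 and 2.27 CPM (0.527), so all 6 chains had ratios under 1.

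Collagen VI, which builds beaded filaments next to basement membranes, had 2 of 7 chains past 2-fold, both toward PVH. Col6a5 was at 2.36 CPM with ARC and 6.22 CPM with PVH (2.63, 1.84 to 3.81), and Col6a2 at 2.00 and 4.24 CPM (2.12, 1.42 to 3.22). Col6a1, the chain with the most UMIs in this family, was at 9.08 and 5.44 CPM (0.599). Of the multiplexins, whose carboxy-terminal ends release endostatin-like fragments, Col15a1 was at 0.616 and 3.59 CPM on 12 and 60 UMIs (5.82, 3.10 to 11.9) while Col18a1 was at 15.1 and 18.5 CPM (1.22).

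Among the transmembrane collagens only Col13a1, known from the neuromuscular junction, passed 2-fold, at 0.513 and 1.61 CPM (3.15, 1.48 to 7.28), and 8 of its 37 UMIs lay in a single nucleus. Col25a1 was at 178 CPM with ARC and 213 CPM with PVH (1.19), and Col23a1 at 47.8 and 29.3 CPM (0.614). Col26a1, an EMI domain collagen placed here with the fibril-associated types, was at 9.80 and 21.2 CPM (2.16, 1.81 to 2.59). PVH cluster 3, which passes lists of oligodendrocyte markers, held 80 of its 354 PVH UMIs, none of them in the 11 nuclei with at least 3 lineage genes, and without the clusters that pass a non-neuronal list the ratio was 1.91. The true fibril-associated collagens lay within 2-fold, with Col9a2 at 26.5 and 23.7 CPM, Col19a1, a collagen of interneurons, at 18.0 and 13.9 CPM, Col9a3 at 12.4 CPM on both sides and Col16a1 at 11.5 and 12.1 CPM. Col12a1 was at 6.82 and 8.96 CPM, Col14a1 at 7.39 and 5.26 CPM and Col20a1 at 2.72 and 3.17 CPM. The short chain collagen Col8a1 was at 28.3 and 17.8 CPM and Col7a1, which anchors the skin, at 2.21 and 3.41 CPM.

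The proteases showed differences in both directions. Adamts17 and Adamts6, proteases linked to fibrillin microfibrils, were at 112 and 77.5 CPM with ARC and at 52.4 and 35.8 CPM with PVH, 2.14-fold (1.98 to 2.32) and 2.16-fold (1.97 to 2.38) higher with ARC. Of the proteoglycan-cleaving group, Adamts1 was at 4.26 and 1.26 CPM (3.39-fold higher with ARC, 2.08 to 5.77) and Adamts9 at 15.7 and 6.22 CPM (2.53-fold, 2.02 to 3.19). Adamts12, which cuts the cartilage protein COMP, went the other way, at 6.98 and 18.2 CPM (2.61, 2.13 to 3.22).

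The procollagen N-proteinases, which also cut reelin, did not pass 2-fold. Adamts3 was at 31.0 CPM with ARC and 17.7 CPM with PVH (0.571, 0.495 to 0.657), and Adamts2 at 14.5 and 25.5 CPM (1.75, 1.51 to 2.05), so the pair lay on opposite sides of 1. Adamts10 was at 27.6 and 30.7 CPM, Adamts18 at 25.0 and 22.6 CPM, Adamts16 at 7.18 and 11.4 CPM and Adamts19 at 4.92 and 6.45 CPM. In the proteoglycan-cleaving group Adamts20 was at 6.77 and 9.80 CPM, Adamts8 at 5.75 and 5.20 CPM and Adamts5, an aggrecanase, at 2.87 and 3.47 CPM.

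Of the ADAMTS-like genes, Adamtsl1 was at 19.2 CPM with ARC and 53.1 CPM with PVH (2.76, 2.44 to 3.12), and Sh3gl2 overlaps it on the same strand. Adamtsl2, which binds fibrillin and a latent growth factor complex, was at 2.51 and 1.14 CPM (2.21-fold higher with ARC, 1.28 to 3.98). Adamtsl3 was at 14.9 and 8.19 CPM and Adamtsl4 at 12.0 and 8.61 CPM. Under 11 other settings, Adamtsl1 and Adamts12 kept the call toward PVH in all, and Col24a1, Adamts1 and Adamts9 the call toward ARC. With each nucleus thinned to 1000 UMIs, 5 of 42 genes were past 2-fold toward PVH, beside 327 of all 14034 genes. Toward ARC, where 387 of all genes were past 2-fold, 6 of the 8 calls were kept. Adamtsl2 (11 ARC and 4 PVH UMIs) and Col4a6 (6 and 4) fell under the minimum, and Adamts8, Col6a1, Col23a1 and Col4a5 passed as well. Of the calls lost in this draw, Col27a1 had 3 ARC and 13 PVH UMIs (a ratio of 5.31), Col13a1 1 and 5 (6.13) and Col15a1 4 and 7 (2.15), so these missed the 20 UMIs and not the fold, while Col11a2 had 7 and 11 (1.93) and Col6a5 13 and 20 (1.89). A stricter hashtag threshold used a positive quantile of 0.99. It left 5 of 47 genes past 2-fold toward ARC and 6 toward PVH (499 and 416 of all 15016 genes). Below 2-fold there were Adamts17 (1.98-fold higher with ARC), Adamts6 (1.90-fold), Col4a3 (1.70-fold) and, on 12 UMIs, Col4a6 (1.16-fold), and toward PVH Col6a5 (1.83-fold) and Col6a2 (1.48-fold). Col15a1 and Col13a1 had 15 and 9 UMIs, under the minimum.

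Clusters of neurons were formed for each hashtag from 2000 variable genes, with the collagen and ADAMTS genes left out so that they could not shape the clusters. This gave 14 ARC clusters and 15 PVH clusters. A class name ending in -like rests on marker genes, among them Agrp, Pomc, Tac2 and Sim1, and clusters without enough markers go by number. The summed level of the 67 genes ran from 609 CPM (ARC cluster 12) to 1431 CPM (cluster 10), with 1283 CPM in KNDy-like, 1061 CPM in AGRP-like and 781 CPM in POMC-like neurons. It ran from 534 CPM in PVH cluster 14, with Avp among its markers, to 1498 CPM in PVH cluster 12, with Trh among its own.

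Single genes of the module marked single clusters. In ARC nuclei, Col24a1 was nearly confined to KNDy-like neurons, Col4a3 and Col4a4 were highest in the GABAergic cluster 6, Col6a1 in cluster 14 and Col12a1 and Col8a1 in GHRH-like neurons. At least 4-fold higher in 1 cluster than in all other ARC neurons were 23 of 54 genes with at least 20 UMIs (42.6%), beside 5.7% of all 16529 genes. In PVH nuclei they were 14 of 56 genes (25%), beside 4.98% of all 16253 genes. No gene was 4-fold higher in more than 1 cluster of a side. The lists shared 7 genes, Adamts5, Col12a1, Col18a1, Col19a1, Col2a1, Col8a1 and Col9a1, which are 30.4% of the ARC list and 50% of the PVH list. These shares lie near the 25% and 42.6% of compared module genes that were on the PVH and the ARC list. The overlap over all genes was not computed. The leading cluster was glutamatergic for 8 and GABAergic for 15 of the ARC genes, and glutamatergic for 12 and GABAergic for 2 of the PVH genes. Of the clusters themselves, 5 were glutamatergic and 9 GABAergic with ARC, and 10 and 5 with PVH. The same split over all genes with a 4-fold cluster was not computed.

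**Figure D2:**
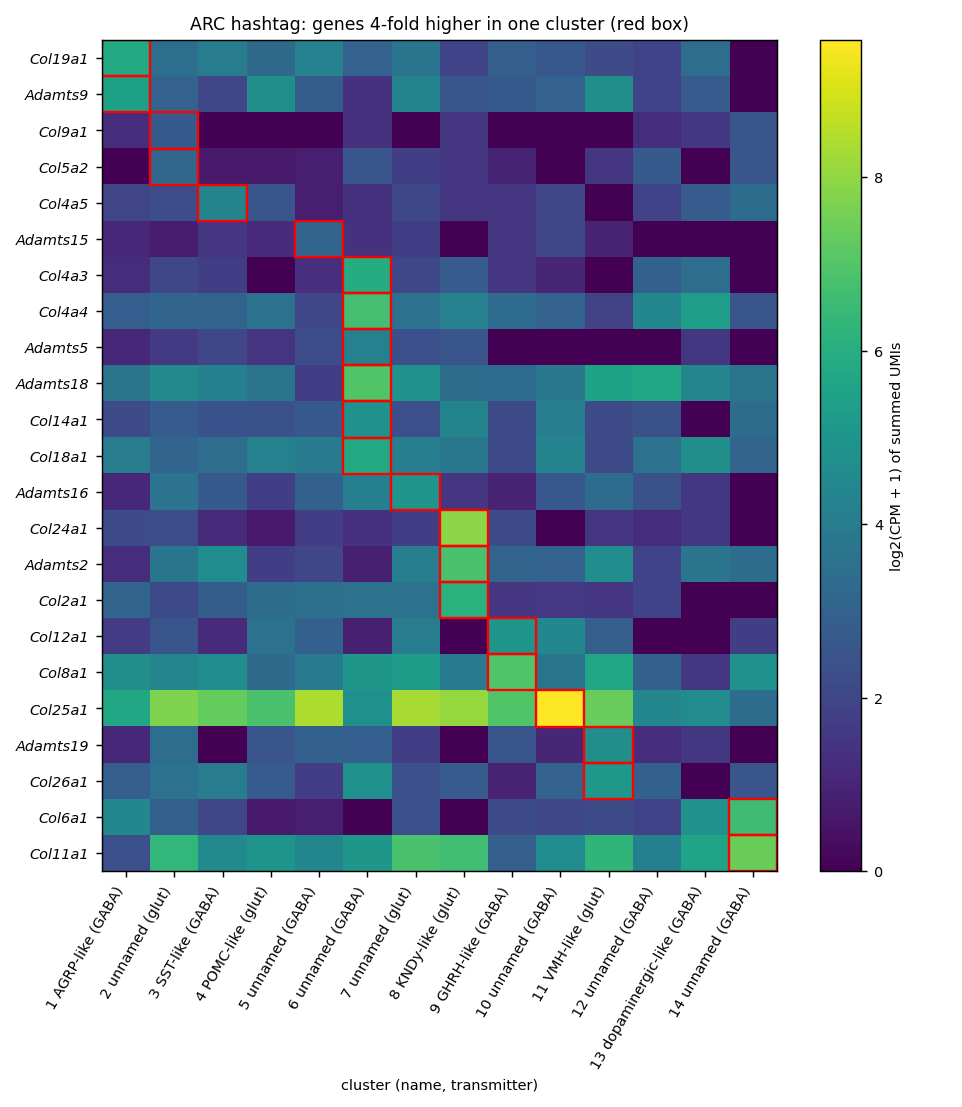
Level, as log2(CPM + 1) of summed UMIs, of the 23 genes that were at least 4-fold higher in 1 of the 14 ARC clusters, with the leading cluster boxed in red and each cluster given with its name and transmitter. Cluster 6 leads for 6 genes, KNDy-like cluster 8 for 3, and Col24a1 reaches 242 CPM in cluster 8 with at most 3.85 CPM in any other cluster.

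KNDy neurons, which drive the pulses of gonadotropin-releasing hormone, are marked by Tac2, Kiss1 and Pdyn. Col24a1 was at 242 CPM in the 212 KNDy-like nuclei (213 to 273) and 2.33 CPM in the other ARC neurons, a fold of 104 (74.8 to 147). Over the 14 clusters its level had a lowest value of 0, a median of 1.90 and a next highest value of 3.85 CPM, and 257 of its 300 ARC UMIs (85.7%) lay in this cluster. A UMI was seen in 49.5% of KNDy-like nuclei and 1.01% of the others, and in 21.7% and 0.169% at 1000 UMIs per nucleus. No other ARC cluster approached KNDy-like neurons for this gene.

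Adamts2 and Col2a1 led in the same cluster. Adamts2, a procollagen N-proteinase, was at 114 CPM in KNDy-like nuclei and 8.79 CPM elsewhere (12.9-fold, 10.1 to 16.5), with 24.7 CPM in the next cluster, VMH-like. Col2a1 was at 68.7 and 6.19 CPM (11.1-fold, 8.16 to 15.0). Against all other ARC neurons, KNDy-like nuclei had 6 of 54 genes at least 2-fold higher, beside 4.64% of all genes, the others being Adamtsl2 (3.90), Col14a1 (2.80) and Col11a1 (2.40). They had 17 genes at least 2-fold lower, beside 9.65% of all genes. Those included Adamts17 at 32.9 CPM against 117 CPM, Adamts6 at 0.399 of its level in the others and Col9a2 at 4.70 against 27.7 CPM, and no UMI of Col6a1 or Col12a1 was seen in these nuclei.

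The RefSeq promoter window of Col24a1 (GRCm38.p6, chr3:145292222-145292521, plus strand) is shown because the gene marks 1 cluster. It covers 250 bases before to 50 after the start, which is base 251, and the capitals mark a cyclic AMP response element, TGACGTCA, at bases 244 to 251. The motif was chosen after the window had been read, and it is in 1.79% of all 32817 promoter windows and in 1.92% of the 52 windows of 49 genes of the module, which is this one alone.
Col24a1 promoter: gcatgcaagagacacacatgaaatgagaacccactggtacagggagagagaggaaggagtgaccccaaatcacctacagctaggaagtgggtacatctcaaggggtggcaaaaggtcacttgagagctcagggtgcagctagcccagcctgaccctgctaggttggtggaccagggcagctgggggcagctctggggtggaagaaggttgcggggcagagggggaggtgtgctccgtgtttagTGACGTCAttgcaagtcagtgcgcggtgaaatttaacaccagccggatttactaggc
The GC content of the window is 56.3%. A match is a description of the letters and says nothing of a factor at the site.

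Collagen IV chains are encoded as pairs of neighbouring genes transcribed away from each other. In GRCm38, Col4a4 lies at chr1:82448423-82586849 on the minus strand and Col4a3 at chr1:82586921-82722059 on the plus strand, with starts 72 bp apart. Col4a1 (chr8:11198423-11312826, minus strand) and Col4a2 (chr8:11312805-11449287, plus strand) have starts 21 bp apart, and the starts of Col4a5 and Col4a6 lie 1309 bp apart. The promoter windows are shown because each of the first pairs shares its stretch between the starts. In the Col4a4 window (chr1:82586800-82587099, minus strand) the Col4a4 start is base 251 and the Col4a3 start base 179, in the Col4a1 window (chr8:11312777-11313076, minus strand) they are bases 251 (Col4a1) and 272 (Col4a2), and the Col4a2 window (chr8:11312555-11312854, plus strand) shares 78 bases with the Col4a1 window. Capitals mark the CCAAT box and the GC box GGGCGG, read on either strand.
Col4a4 and Col4a3: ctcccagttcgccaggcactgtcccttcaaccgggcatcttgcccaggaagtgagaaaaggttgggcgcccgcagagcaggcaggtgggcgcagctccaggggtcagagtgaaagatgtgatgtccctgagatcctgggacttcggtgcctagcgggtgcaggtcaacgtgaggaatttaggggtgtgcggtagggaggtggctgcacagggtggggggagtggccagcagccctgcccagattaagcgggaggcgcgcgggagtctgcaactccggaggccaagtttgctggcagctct
Col4a1: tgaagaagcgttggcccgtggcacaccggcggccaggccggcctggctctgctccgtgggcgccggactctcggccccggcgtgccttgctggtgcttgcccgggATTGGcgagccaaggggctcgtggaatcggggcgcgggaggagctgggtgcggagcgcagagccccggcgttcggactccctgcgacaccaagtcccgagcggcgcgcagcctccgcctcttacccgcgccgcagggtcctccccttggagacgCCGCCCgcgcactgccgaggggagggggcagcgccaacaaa
Col4a2: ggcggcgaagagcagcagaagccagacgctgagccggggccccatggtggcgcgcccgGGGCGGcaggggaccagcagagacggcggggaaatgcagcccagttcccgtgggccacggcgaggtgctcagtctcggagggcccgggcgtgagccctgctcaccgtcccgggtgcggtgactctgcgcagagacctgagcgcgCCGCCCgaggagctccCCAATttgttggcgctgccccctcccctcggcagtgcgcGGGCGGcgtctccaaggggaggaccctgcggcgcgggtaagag
The Col4a4 window holds no match to any of the 4 motifs searched on either strand (the other one is TATAAA). The Col4a1 window holds 1 CCAAT and 1 GGGCGG, and the Col4a2 window holds 1 CCAAT and 3 GGGCGG. The GGGCGG at bases 260 to 265 of the Col4a1 window and that at bases 258 to 263 of the Col4a2 window are the same site, in the shared bases. Among all windows 37.4% hold CCAAT, beside 30.8% of those of the module, and the shares were, in the same order, 35.6% and 67.3% for GGGCGG and 13.6% and 13.5% for TATAAA. The GC content was 63.3% in the Col4a4 window, 74.0% in the Col4a1 window and 73.7% in the Col4a2 window.

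Col4a3 and Col4a4 were highest in the same ARC cluster. In the 261 nuclei of cluster 6, a GABAergic cluster without a name, Col4a3 was at 59.5 CPM against 2.36 CPM in the other ARC neurons (25.2-fold, 17.1 to 37.6), and Col4a4 at 105 against 9.21 CPM (11.4-fold, 9.04 to 14.5). The next highest cluster for both was the dopaminergic-like one, at 9.79 and 39.2 CPM. Medians over the 14 clusters were 2.15 and 8.47 CPM. C430014B12Rik, which overlaps Col4a3 on the other strand, was at 114 CPM in cluster 6 and 3.95 CPM elsewhere, so without strand its reads and those of Col4a3 cannot be told apart, whereas no annotated gene overlaps Col4a4.

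The pair was also found in the same nuclei. Col4a4 had a UMI in 38 of 80 ARC nuclei with Col4a3 (47.5%, 36.2 to 59.0) and in 4.18% of those without, at medians of 4968 and 4825 UMIs. Within cluster 6 these shares were 30 of 41 nuclei (73.2%, 57.1 to 85.8) and 11.8%, and with the PVH hashtag they were 7 of 18 nuclei (38.9%, 17.3 to 64.3) and 3.76%. For Col4a1 and Col4a2 the shares lay closer, with Col4a2 in 38.8% of ARC nuclei with Col4a1 and 29.5% of those without (PVH, 37.3% and 25.4%). Col4a6 had a UMI in 3 of 73 ARC nuclei with Col4a5 (4.11%) and in 0.731% of the others.

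Col4a1 and Col4a2 were found in every cluster. Col4a2 ran from 52.7 through a median of 71.9 to 103 CPM over the ARC clusters and from 33.0 through 62.8 to 96.3 CPM over the PVH clusters, and Col4a1 from 12.8 through 39.8 to 50.2 CPM and from 10.0 through 32.9 to 64.6 CPM. The Spearman correlation of the levels over the 14 ARC clusters, which share 1 library, was 0.70 for Col4a1 and Col4a2, 0.83 for Col4a3 and Col4a4 and -0.23 for Col4a5 and Col4a6. Over the 15 PVH clusters it was 0.73, 0.41 and 0.24. Col4a5 led in SST-like neurons, at 19.1 against 2.97 CPM (6.43-fold, 3.99 to 10.2).

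**Figure D3:**
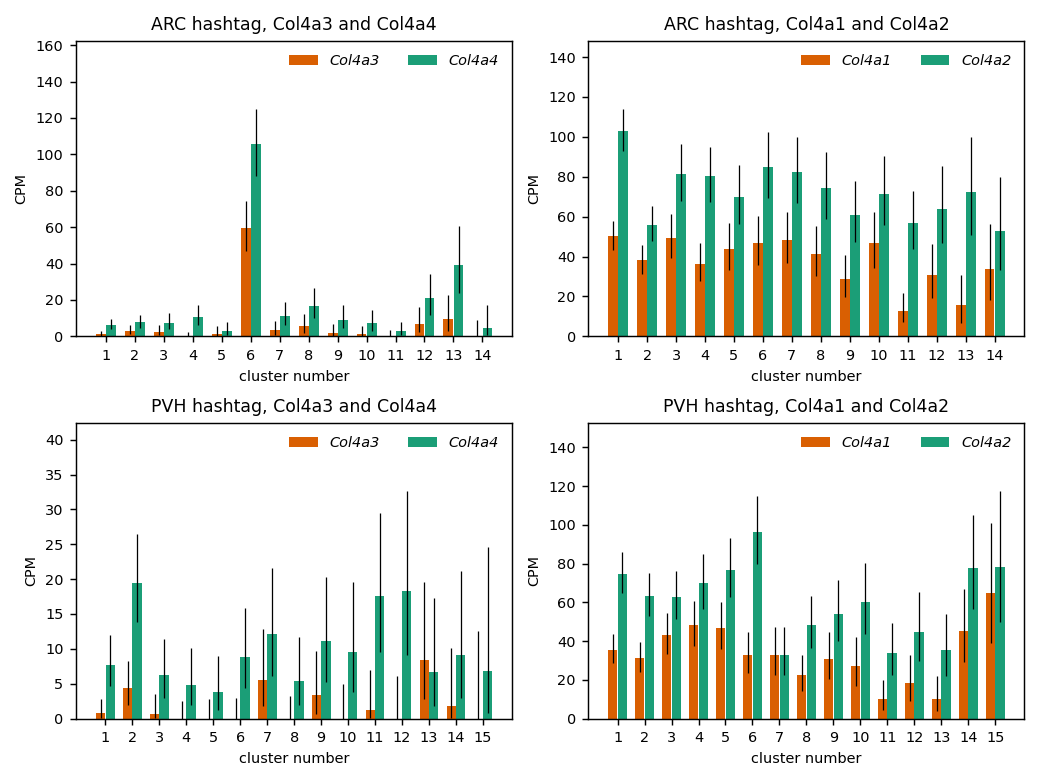
CPM of summed UMIs with exact intervals for Col4a3 with Col4a4 and for Col4a1 with Col4a2 in each of the 14 ARC clusters and 15 PVH clusters, on axes that differ between panels. Col4a3 and Col4a4 peak in ARC cluster 6 at 59.5 and 105 CPM, while Col4a1 and Col4a2 have UMIs in every cluster.

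Cluster 6 also led for 4 other genes. Adamts18, a protease with no firmly known substrate, was at 125 CPM there and 18.0 CPM elsewhere (6.94-fold, 5.70 to 8.42), and Adamts5 at 17.4 and 1.86 CPM (9.35-fold, 5.21 to 16.5). Col14a1, a fibril-associated collagen, was at 29.3 and 5.87 CPM (5.00-fold), and Col18a1 at 54.7 and 12.4 CPM (4.41-fold). Counting each gene at most once per nucleus took Col14a1 and Col18a1 below 4-fold.

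AGRP-like neurons, which drive hunger, led for Col19a1 and Adamts9. Col19a1 was at 57.0 CPM in the 680 AGRP-like nuclei and 8.97 CPM elsewhere (6.35-fold, 5.11 to 7.92), with UMIs in 23.2% and 3.82% of nuclei. Adamts9 was at 42.0 and 9.61 CPM (4.37-fold, 3.47 to 5.51), and was below 4-fold at a resolution of 0.3 and with both hashtags clustered together. In all, 10 of 54 genes were at least 2-fold higher in AGRP-like neurons, beside 3.36% of all genes, among them Col6a1 at 21.3 against 6.26 CPM, Adamtsl3 at 33.5 against 10.6 CPM, Adamts6 at 168 against 56.4 CPM and Adamts17 at 207 against 90.0 CPM. At least 2-fold lower were 23 of 54, beside 8.48% of all genes. Col11a1 was at 4.09 against 53.6 CPM, Adamts2 at 1.36 against 17.6 CPM and Col25a1 at 51.3 against 208 CPM.

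POMC-like neurons, which promote satiety, had no gene of the module called at 4-fold, which takes at least 10 UMIs in the cluster. In these 287 nuclei 6 of 54 genes were at least 2-fold higher (3.42% of all genes) and 14 at least 2-fold lower (7.67%). The 6 rested on 15 UMIs or fewer each, with Col22a1 at 4.78 against 1.01 CPM on 8 UMIs (4.74-fold, 1.78 to 11.4) and Adamts1 at 8.97 against 3.82 CPM (2.35-fold). Among the lower ones Col24a1 was at 0.598 against 16.8 CPM, Col6a1 at 0.598 against 9.88 CPM and Col23a1 at 21.5 against 50.2 CPM. No Col4a3 UMI was seen in them.

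GHRH-like neurons, whose hormone releases growth hormone, led for Col8a1 and Col12a1. Col8a1, a short chain network collagen, was at 126 CPM in the 204 nuclei and 22.5 CPM elsewhere (5.58-fold, 4.56 to 6.79), and Col12a1, a fibril-associated collagen of tendon and bone, at 31.4 and 5.38 CPM (5.85-fold, 3.84 to 8.71). With 1 UMI counted per nucleus, Col8a1 was below 4-fold. These and Col20a1 (5.55 against 2.55 CPM) were the 3 of 54 genes at least 2-fold higher, beside 4.06% of all genes, and 21 were at least 2-fold lower, beside 9.11%. VMH-like neurons led for Adamts19, at 25.7 and 3.70 CPM (6.94-fold, 4.30 to 10.9), and for Col26a1, at 33.9 and 8.37 CPM (4.05-fold), a call lost under 3 of 9 other settings. In them 5 of 54 genes were at least 2-fold higher (4.34% of all genes) and 16 lower (8.89%), with Col9a2 at 0.916 against 28.0 CPM and Col4a1 at 12.8 against 42.1 CPM.

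SST-like neurons had 6 of 54 genes at least 2-fold higher (3.01% of all genes), with Adamtsl3 at 40.6 against 12.6 CPM (3.22-fold, 2.41 to 4.26) after Col4a5, and 13 lower (7.02%). Dopaminergic-like neurons, only 93 nuclei, had 5 higher (5.48%), among them Col6a1 at 29.4 against 8.53 CPM and Col4a4 at 39.2 against 14.8 CPM, and 12 lower (9.78%), among them Col8a1 at 1.96 against 29.0 CPM and Adamts3 at 3.92 against 31.7 CPM.

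The other leading clusters had no name. Col25a1 was at 764 CPM in cluster 10, a GABAergic cluster of 196 nuclei, and 147 CPM elsewhere (5.18-fold, 4.77 to 5.62), with UMIs in 41.3% and 10.3% of nuclei at 1000 UMIs per nucleus, and 1 nucleus held 22 of them. Its level over the ARC clusters ran from 9.59 through a median of 140 to 764 CPM. With 1 UMI counted per nucleus it was below 4-fold. In cluster 14, of 88 nuclei, Col6a1 was at 95.9 and 7.18 CPM (13.3-fold, 9.14 to 19.1) and Col11a1 at 170 and 41.6 CPM (4.09-fold, 3.16 to 5.22), the latter below 4-fold under 4 of 9 other settings. Adamts16 led in the glutamatergic cluster 7, at 30.6 and 5.59 CPM (5.48-fold). Adamts15 led in cluster 5, at 7.67 CPM (6.34-fold), a call kept under 6 of 9 other settings and lost at a minimum of 50 UMIs.

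Cluster 2 led for Col9a1 and Col5a2, and it was also the ARC cluster with the highest summed level of oligodendrocyte markers, 283 CPM against 100 CPM over all ARC nuclei. Of its 573 nuclei, 16 had UMIs of at least 3 of 11 oligodendrocyte lineage genes. Col9a1, at 5.60 CPM in the cluster (7.17-fold), had 14 of its 16 UMIs in these 16 nuclei, where Col9a3 was at 270 CPM and Col20a1 at 135 CPM against 12.2 and 3.23 CPM in the other 557, and all 8 UMIs of Adamts4, an aggrecanase, lay there. Col5a2, a minor fibrillar chain, at 8.05 CPM (5.82-fold), had none of its 23 UMIs in them. The other 557 nuclei also held 170 of the 206 Sim1 UMIs of ARC nuclei. Without clusters that pass a list of non-neuronal markers, neither gene had a 4-fold cluster.

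With the PVH hashtag, most leading clusters were Sim1-like, the glutamatergic class of the paraventricular nucleus. Col12a1 was at 111 CPM in cluster 12, a Trh cluster of 106 nuclei, and 5.15 CPM elsewhere (21.6-fold, 15.4 to 30.1), with UMIs in 27.4% and 2.19% of nuclei. Adamtsl3 led in the same cluster, at 68.0 and 5.95 CPM (11.4-fold, 7.72 to 16.6). Col6a5 was at 55.5 CPM in cluster 8, another Trh cluster, of 184 nuclei, and 2.69 CPM elsewhere (20.6-fold, 13.7 to 31.3). That cluster also led for Col2a1 (33.1 and 4.61 CPM, 7.18-fold), Col18a1 (66.2 and 15.1 CPM, 4.38-fold) and Col13a1 (10.7 CPM, 11.2-fold). The Trh clusters thus led for 6 of the 14 genes. Of the 15 PVH clusters, 6 were Sim1-like. How often these or the Trh clusters led over all genes with a 4-fold cluster was not computed. The call of Col13a1 was lost with 1 UMI counted per nucleus and with a minimum of 50 UMIs, and that of Col18a1 without clusters that pass a non-neuronal list.

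**Figure D4:**
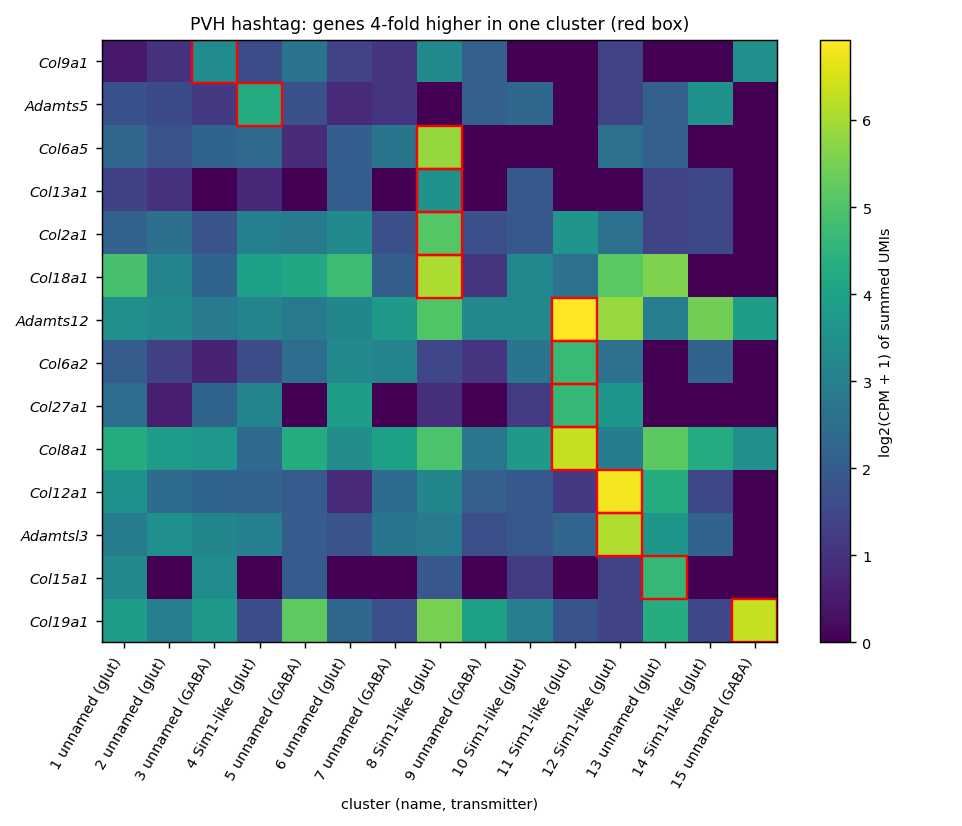
Level, as log2(CPM + 1) of summed UMIs, of the 14 genes that were at least 4-fold higher in 1 of the 15 PVH clusters, with the leading cluster boxed in red. Sim1-like clusters 8 and 11 lead for 4 genes each and cluster 12 for 2, with Adamts12 at 120 CPM in cluster 11 and Col12a1 at 111 CPM in cluster 12.

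Cluster 11, of 107 nuclei and with Oxt among its markers, led for Adamts12 at 120 CPM against 13.1 CPM (9.17-fold, 7.12 to 11.7). Adamts12 had UMIs in 48.6% and 5.90% of nuclei, and at 1000 UMIs in 16.8% and 1.18%. The median depth of cluster 11, 7088 UMIs, was the highest of the PVH clusters. Col6a2 (25.1 and 3.20 CPM, 7.83-fold), Col27a1 (23.8 CPM, 6.77-fold) and Col8a1 (78.9 and 14.7 CPM, 5.35-fold) led there too, and Col8a1 was below 4-fold at a resolution of 0.3. In cluster 4, with Crh (75 UMIs over all PVH nuclei) among its markers, Adamts5 was at 18.1 and 2.09 CPM (8.67-fold, 4.96 to 15.0).

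Outside the Sim1-like class, Col15a1 was at 23.6 CPM in cluster 13, marked by Lhx9 and Tcf7l2 (8.27-fold), where the summed fibroblast markers were also highest of the PVH clusters, at 33.7 CPM against 4.24 CPM over all PVH nuclei. Their part in the Col15a1 level was not tested. Col19a1 led in the GABAergic cluster 15, at 78.3 and 12.7 CPM (6.16-fold, 3.82 to 9.49), and not in 4 of 9 other settings. Col9a1 led in cluster 3 at 9.33 CPM (4.28-fold), with 14 of its 15 UMIs in the 11 nuclei with at least 3 lineage genes.

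As a class, the Sim1-like neurons had 10 of 56 genes at least 2-fold higher than the other PVH neurons, beside 3.19% of all genes. Col6a5 was at 13.6 against 2.87 CPM (4.72-fold, 3.08 to 7.37), Adamts12 at 39.3 against 8.61 CPM (4.57-fold, 3.58 to 5.86) and Adamts5 at 6.87 against 1.91 CPM (3.59-fold). Col2a1 was at 11.8 against 4.09 CPM and Col27a1 at 7.44 against 3.13 CPM. At least 2-fold lower were 8 of 56, beside 5.21% of all genes, among them Col11a1 at 33.2 against 80.1 CPM, Col11a2 at 2.10 against 4.35 CPM on 11 and 50 UMIs, Col26a1 at 7.63 against 27.3 CPM, Adamts18 at 9.54 against 28.6 CPM and Adamts3 at 9.73 against 21.3 CPM.

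Between transmitter classes, glutamatergic clusters had more Slc17a6, a glutamate transporter, than Slc32a1, the GABA transporter, and GABAergic clusters the reverse. In the ARC, with 1512 and 2255 nuclei, Col24a1, Adamts2 and Col11a1 were higher in glutamatergic neurons and Adamtsl3, Col19a1, Col9a2 and Adamts17 in GABAergic ones. At least 2-fold higher in glutamatergic clusters were 13 of 54 genes (24.1%), beside 3.63% of all genes, and in GABAergic clusters 10 of 54 (18.5%), beside 2.18%. With the PVH hashtag, with 2089 and 985 nuclei, the counts were 15 of 56 (26.8%), beside 4.07% of all genes, and 6 of 56 (10.7%), beside 2.3%. Cluster 2, with 573 of the 1512 glutamatergic ARC nuclei, was close to even, at 45.5 CPM of Slc17a6 and 39.6 CPM of Slc32a1. With only clusters at least 2-fold apart in these transporters, 9 genes were higher in glutamatergic and 11 in GABAergic ARC clusters (488 and 577 of all 16064 genes), and at a resolution of 1.2 they were 8 and 10 (436 and 619 of 16480), so the larger count changed sides in both. Under all 8 other settings the call was kept by 4 of the 13 and 2 of the 10 ARC genes and by 7 of the 15 and 0 of the 6 PVH genes.

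**Figure D5:**
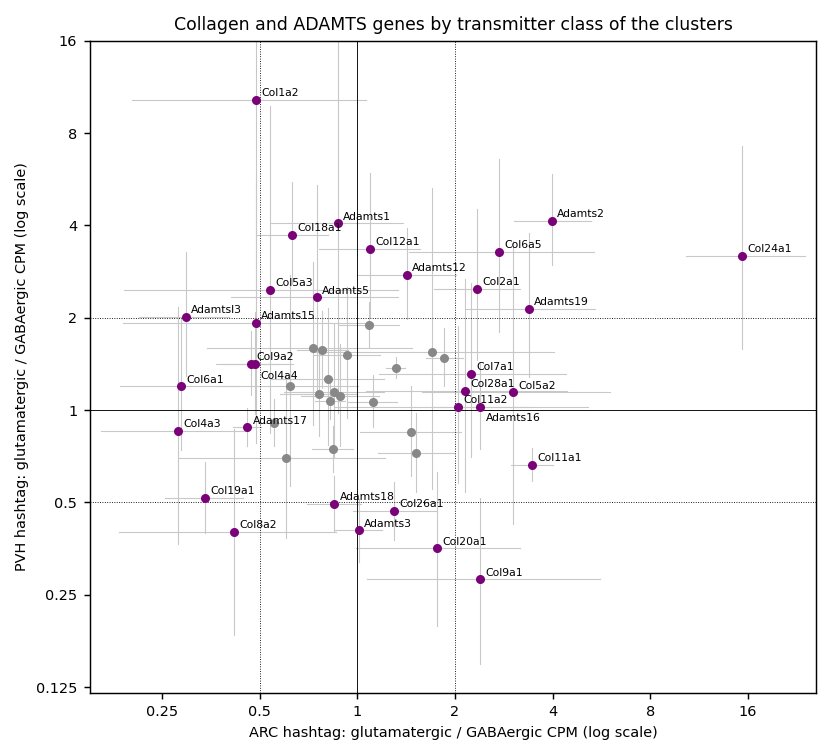
Glutamatergic over GABAergic ratio of CPM (log axes) with the ARC hashtag against that with the PVH hashtag for the 51 genes compared on both sides, with exact intervals that cover counting error. Col24a1, Adamts2, Col2a1, Col6a5 and Adamts19 lie past 2-fold toward glutamatergic neurons on both sides, and the PVH intervals of Col1a2 and Adamts1, which reach 423 and 36.0, run past the axis.

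On the glutamatergic side, Adamts2 was at 26.1 against 6.57 CPM in the ARC (3.98-fold, 3.04 to 5.24) and 32.9 against 7.97 CPM in PVH nuclei (4.13-fold, 2.98 to 5.87). Col24a1 was at 34.6 against 2.25 CPM (15.4-fold, 10.3 to 24.0) and 5.72 against 1.79 CPM (3.19-fold). With Col2a1 (2.33 and 2.49-fold), Col6a5 (2.74 and 3.28-fold) and Adamts19 (3.37 and 2.14-fold), 5 genes passed 2-fold in this direction with both hashtags. They are 38.5% of the ARC list and 33.3% of the PVH list. Of the compared module genes, 26.8% were on the PVH list and 24.1% on the ARC list. The overlap over all genes was not computed. Col11a1 passed in the ARC alone, at 76.6 against 22.2 CPM (3.45-fold, 2.97 to 4.00), as did Adamts16 (2.40-fold). Col18a1 (23.7 against 6.38 CPM, 3.72-fold), Col27a1 (4.92-fold), Col12a1 (3.35-fold), Adamts12 (2.76-fold) and Adamts5 (2.33-fold) passed in PVH nuclei alone, and whether the sides differ was not tested.

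On the GABAergic side in the ARC, Col4a3 was at 8.56 against 2.40 CPM (3.57-fold, 2.17 to 6.18), Col6a1 at 12.8 against 3.66 CPM (3.50-fold) and Adamtsl3 at 20.9 against 6.18 CPM (3.38-fold, 2.48 to 4.70). Col19a1 was at 24.6 against 8.33 CPM (2.96-fold), Adamts17 at 144 against 65.7 CPM (2.19-fold), Col9a2 at 33.7 against 15.9 CPM (2.12-fold) and Col4a4 at 19.5 against 9.46 CPM (2.06-fold). In PVH nuclei, Adamts3 was at 30.3 against 12.3 CPM (2.47-fold, 1.95 to 3.12), Col26a1 at 33.7 against 15.8 CPM (2.13-fold), Adamts18 at 35.1 against 17.3 CPM (2.03-fold) and Col20a1 at 5.78 against 2.05 CPM (2.82-fold). The only gene past 2-fold on both sides was Col8a2, a network collagen of the cornea (2.40 and 2.49-fold). Adamtsl3 was GABAergic in the ARC and glutamatergic in PVH nuclei (2.02-fold), the latter call being lost under 4 of 8 other settings. That of Col26a1 in PVH nuclei was lost under 3 of 8.

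The remaining calls rested on few UMIs. In the ARC these were Col5a2 (31 and 15 UMIs in glutamatergic and GABAergic clusters), Col28a1 (22 and 15), Col7a1 (26 and 17), Col9a1 (18 and 11), Col6a3 (15 and 5) and Col11a2 (14 and 10) toward glutamatergic and Adamts15 (8 and 24) and Col1a2 (9 and 27) toward GABAergic neurons. In PVH nuclei these were Col1a2 (24 and 1 UMIs), Col5a3 (23 and 4) and Adamts1 (19 and 2) toward glutamatergic and Col9a1 (19 and 29) toward GABAergic neurons. Col13a1 had 27 and 0 UMIs, at least 3.85-fold higher in glutamatergic neurons against a floor of 3 UMIs per class. Col5a2, Col7a1, Col9a1 and Col11a2 turned toward GABAergic neurons in the ARC under at least 1 other setting.

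Other genes of collagen synthesis, receptors, substrates and inhibitors are given for context. Of 53 such genes, 48 had at least 20 UMIs, 1 was at least 2-fold higher with PVH (2.08%, beside 3.36% of all genes) and 5 with ARC (10.4%, beside 2.68%). Reln, the secreted guidance protein reelin, was at 32.6 CPM with ARC and 100 CPM with PVH (3.07, 2.80 to 3.37). P4ha3 and Plod1, a prolyl and a lysyl hydroxylase of collagen, were at 23.9 and 10.9 CPM with ARC and 11.2 and 4.90 CPM with PVH (2.12 and 2.23-fold higher with ARC). Papln, a papilin related to the ADAMTS-like proteins, was at 6.67 and 3.23 CPM (2.07-fold), Loxl3, a cross-linking oxidase, at 1.59 and 0.598 CPM (2.66-fold) and Tnc, tenascin C, at 0.821 and 0.359 CPM on 16 and 6 UMIs.

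Of the other ADAMTS substrates, Ncan was at 15.6 and 15.2 CPM, Vcan at 9.44 and 10.9 CPM, Bcan at 5.69 and 5.50 CPM and Acan, aggrecan, at 1.18 and 0.717 CPM on 23 and 12 UMIs. The receptors Itgb1 and Ddr1 were at 96.8 and 83.7 CPM with ARC and 81.5 and 79.0 CPM with PVH, and the inhibitor Timp2 at 59.7 and 58.2 CPM. In the transmitter comparison 3 of 46 of these genes (6.52%, beside 3.63% of all genes) were at least 2-fold higher in glutamatergic ARC clusters. In GABAergic ARC clusters they were 2 (4.35%, beside 2.18%). In PVH clusters 1 of 41 passed each way (2.44%, beside 4.07% of all genes toward glutamatergic and 2.30% toward GABAergic clusters).

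Markers of cells that make most collagen outside neurons were low. The 7 fibroblast markers summed to 1.90 CPM with ARC and 4.24 CPM with PVH, with Igf2 and Slc22a6 at 0 and fewer than 10 UMIs of Lum and Bgn. The 6 endothelial markers summed to 12.3 and 11.7 CPM, with Cldn5 at 0, and the 6 mural markers to 4.92 and 6.63 CPM. The 6 oligodendrocyte markers came to 100 and 102 CPM, with the highest clusters at 283 (ARC cluster 2) and 482 CPM (PVH cluster 3), beside 2008 and 2203 CPM for the 4 neuronal markers.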

How the data were processed

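NeuN-positive nuclei of several mice were pooled and sequenced as 1 gene expression and 1 hashtag library. The deposited values are UMI counts for every gene and hashtag in each barcode, which the authors had not normalized. The submitters' processing notes name Cell Ranger 5.0, Seurat 4 and mm10, and the file header gives version 4.0.0 of Cell Ranger. Filters followed the study's methods (genes per nucleus above 800 and below 5000, up to 12000 counts, of which up to 1% mitochondrial), which left 10170 of 11409 barcodes. HTODemux with a positive quantile of 0.8 gave 3767 ARC and 3074 PVH nuclei, 944 with both hashtags, which were left out as doublets, and 2385 with neither. Doublets within a hashtag are not seen in this way. Total counts were 19492658 UMIs (ARC) and 16732895 UMIs (PVH).

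Clustering used R 4.3.3, Seurat 5.3.0 and leidenbase 0.1.32 for each hashtag (2000 variable genes less the genes described, 30 components, 20 neighbours, Leiden resolution of 0.55). Clusters were named only where the leading marker of a class and 3 or more of its markers in all were at 1.5-fold of the other neurons. Levels are counts per 1000000 UMIs (CPM), summed over nuclei, with exact Poisson intervals, shares have exact binomial intervals, and ratios have exact conditional binomial intervals (Python 3.11.15, scipy 1.17.1). A call was 2-fold between groups (at least 20 UMIs together) or 4-fold in 1 cluster (at least 10 UMIs there), with no test. Gene positions came from GENCODE M21 (GRCm38), with 32158 of 32285 identifiers found, and promoter windows from RefSeq, with 49 of 67 genes matched. Values are named for genes with at least 100 UMIs in singly tagged nuclei, for genes called in a comparison, and for pathway genes that were 2-fold apart or among 8 main substrates, receptors and inhibitors. The genes and lists were chosen with earlier results of these data known. The fold calls alone were tried on simulated counts, for genes with at least 100 UMIs and changes larger than the cutoff. Filters, hashtag assignment, clustering, naming and rarer genes were not tested in this way.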

Additional observations from a re-analysis of the deposited data

Results flagged for a closer look

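Barcodes outside the comparisons also held UMIs of these genes. Their summed level was 955 CPM in the 2385 nuclei with neither hashtag (median 3926 UMIs per nucleus), 954 CPM in the 944 nuclei with both hashtags and 977 CPM in the 1239 barcodes removed by the filters (median 652 UMIs). All of these lay between the levels of the PVH and ARC nuclei, at 943 and 1011 CPM. They are listed because these barcodes entered no comparison, and there are no control samples to set them against.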

How the results depend on the processing

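Of the counts of genes past 2-fold or 4-fold recomputed under each alternative, 63 stayed within 1.5 times the reported count and 9 did not. Thinned to 1000 UMIs, 5 of 42 genes were higher with PVH (327 of all 14034 genes). With a positive quantile of 0.99, 5 of 47 were higher with ARC (499 of all 15016). With single nuclei classed by Slc17a6 and Slc32a1 UMIs in place of clusters, 6 of 36 genes were higher in glutamatergic and 2 in GABAergic ARC nuclei. Of all 13576 genes, 261 and 213 were. In PVH nuclei they were 8 and 2 of 42 (342 and 173 of all 14076). With at least 50 UMIs, 6 of 38 genes were higher in glutamatergic ARC clusters (305 of all 14259). At a resolution of 1.2 there were 8 of 54 (436 of all 16480), and 2 of 56 in GABAergic PVH clusters (270 of all 16253). Fewer genes reach the minimum of UMIs in the thinned, single-nucleus, 50 UMI and 0.99 quantile settings. Some calls were lost on the fold and not on this minimum. Among them were Adamts17, Adamts6 and Col4a3 with the 0.99 quantile and Col6a5 when thinned. Why the counts changed was not tested for any setting. The count of genes with a 4-fold cluster ran from 16 to 24 with ARC and from 12 to 18 with PVH. The share of all genes with one ran from 3.87% to 6.04% and from 3.14% to 5.64%. Of single gene values, 765 kept their size and direction, 88 moved and 8 reversed. The reversed ones were log2 glutamatergic over GABAergic values in the ARC. By single nuclei they were Col5a2 -1.02 (on 12 UMIs), Col7a1 -1.16 (16) and Col11a2 -1.02 (6). At a resolution of 1.2 they were Col9a1 -2.35 (29), Col5a2 -0.18 (32) and Col11a2 -0.52 (24). Col9a1 was at -1.27 (13) with clusters at least 2-fold apart and also without clusters that pass a non-neuronal list. No cluster of either hashtag was low in neuronal markers, so removing such clusters gave no value. Without the one found when both hashtags were clustered together, 10 genes were higher with PVH and 8 with ARC (608 and 492 of all 18070 genes). This setting, the non-neuronal lists and the cap of 1 UMI per nucleus and gene were chosen after seeing the data. No paired analysis was possible because both libraries are of the same nuclei. Depth limits rare genes most, since 26 of the 67 had fewer than 100 UMIs.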
